A study of Mus musculus with 24 samples.

Results

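The Obox genes are a mouse family of homeobox transcription factors named for their transcripts in the oocyte, and 7 of its members, Obox1, Obox2, Obox3, Obox5, Obox6, Obox7 and Obox8, were followed here through 3 cleavage stages with and without knockdown of the endogenous retrovirus MERVL. The members were the 7 listed symbols, matched by name, of 55291 genes in the count files. All 7 had counts in the 12 RNA libraries, apart from a count of 0 for Obox3 in one library. All 7 passed the filter on low counts in each main fit. Obox3 and Obox7 did not pass it in every alternative fit described at the end. Another 48 rows carried an Obox name, namely 39 Obox4 pseudogenes, 8 Obox3 pseudogenes and 1 Obox6 pseudogene, and there was no row named Obox4.

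The libraries came from mouse embryos of B6D2F1 parents aged 8 weeks (the sample labels name the strain BDF2). Zygotes had been injected into the male pronucleus with antisense oligonucleotides (ASOs) at 20 µM. MERVL-KD embryos received 3 ASOs against MERVL, a retrovirus-derived repeat transcribed in a burst at the 2-cell stage, and control embryos received a scrambled ASO, so that both arms were injected. Total RNA was sequenced from control and MERVL-KD embryos at the 2-cell (1.5 days post-coitum), 4-cell and 8-cell stages (both labelled 2.5 days post-coitum), with 2 libraries in each of the 6 groups. Each library pooled 30 embryos freed of the zona pellucida, so no value belongs to a single embryo or blastomere.

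Obox proteins carry a paired-like homeodomain, and their genes form a tandem array on mouse chromosome 7. Transcripts of Obox1, Obox2, Obox5 and Obox7 are stored in the oocyte, Obox3 is transcribed when the embryonic genome is activated at the 2-cell stage, and embryos without the cluster are impaired in genome activation. Obox6 is dispensable for mouse development when deleted alone.

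On GRCm38 all 7 members lay on chromosome 7, on both strands, in the order Obox8 (chr7:14331436-14333557, minus strand), Obox7 (chr7:14659496-14665996, plus strand), Obox2 (chr7:15388721-15398545, plus strand), Obox1 (chr7:15388948-15556866, plus strand), Obox3 (chr7:15479825-15639902, minus strand), Obox5 (chr7:15750131-15759800, plus strand) and Obox6 (chr7:15833241-15839678, minus strand). The GENCODE models hold between 3 merged exons (Obox6 and Obox8) and 8 (Obox1). The span of Obox1 reaches 167919 bases because its first annotated exon, of 59 bases, lies inside an exon of Obox2. RefSeq promoters of GRCm38.p6 (250 bases before and 50 after the annotated start) were matched for 5 of the 7 members, Obox1, Obox2, Obox3, Obox5 and Obox7, while Obox6 and Obox8 had no entry. These 5 promoters shared an unbroken run of 25 bases, found in no other of 32851 promoters on either strand (5 of them, 0.0152%). It was picked as the longest run common to these 5 promoters, so its presence in all 5 was fixed by that choice. It is shown as a feature of these 5 promoters. All 5 of these members fell after the 2-cell stage, as given below. Obox6 and Obox8, which rose, had no promoter to compare, and the part of the run in the fall was not tested. The run is in capitals, read 5′ to 3′ on each gene's own strand:
Obox5: ggGTGAGAATTAAGGATTTGAATATTGcaa
Obox1: ggGTGAGAATTAAGGATTTGAATATTGcaa
Obox2: ggGTGAGAATTAAGGATTTGAATATTGcaa
Obox7: ggGTGAGAATTAAGGATTTGAATATTGcaa
Obox3: gtGTGAGAATTAAGGATTTGAATATTGtaa

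These stretches lay at chr7:15750258-15750287 for Obox5, chr7:15547157-15547186 for Obox1, chr7:15388848-15388877 for Obox2, chr7:14659622-14659651 for Obox7 (plus strand) and chr7:15639859-15639888 for Obox3 (minus strand). The first capital stood 110 bases before the RefSeq start in Obox5, 109 in Obox3, 98 in Obox1 and 84 in Obox7. In Obox2 it stood 1 base before the start, because the RefSeq start of that gene is annotated further upstream. The GENCODE models place each of these stretches inside an annotated exon, so the starts differ between the catalogues. Nearer the start, 4 of the 5 promoters held the letters TATATAA, a motif chosen after the sequences had been seen, which 3.242% of all promoters held on either strand. It is in capitals here:
Obox5: gtttgcagagaTATATAAgggcaggtcttc
Obox1: gtttgcagagaTATATAAgggcaggtcttc
Obox7: gtttgcagagaTATATAAgggcaggtcttc
Obox3: gtttggagagaTATATAAgggcaggtcttc

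These 4 stretches lay at chr7:15750328-15750357, chr7:15547227-15547256, chr7:14659692-14659721 (plus strand) and chr7:15639789-15639818 (minus strand). The promoter window of Obox2 ended 50 bases after its start, which is annotated further upstream. The place in Obox2 that matches these stretches, beyond the shared run, was therefore outside the window and was not searched. Of the other motifs searched on both strands, the NOBOX element TAATTG was in 0 of the 5 promoters (8% of all), the E-box CANNTG in 4, all but Obox3 (72.3% of all), and the paired-like homeodomain site TAATCC in 1, Obox3 (7.06% of all). TAATTG and TAATCC share their first letters, and an E-box may overlap either. Along the aligned promoters, identity was 95.5% between Obox1 and Obox5, 97.1% between Obox5 and Obox7 and 100% between Obox1 and Obox2, against 62.6% to 75.5% between Obox3 and the others. The shifted window of Obox2 shortened its alignments, to 203 bases with Obox1 and to 187 with Obox3, the pair at 62.6%. Obox3 aligned over 284 bases with Obox1, 290 with Obox5 and 272 with Obox7, at 72.1% to 75.5%.

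The coding sequences were close to each other as well. RefSeq coding sequences matched 6 members, from 456 bases (Obox2) to 1044 bases (Obox6). Pairs without Obox6 were 93.0% to 98.5% identical over the aligned bases, and the 5 pairs with Obox6 were 76.1% to 80.9% identical. Only uniquely aligned reads had been kept, so stretches with an exact copy elsewhere could not be counted in full. Of all 150-base windows in the annotated exons, 100% occurred once in the genome for Obox5, Obox6, Obox7 and Obox8, 81.0% for Obox3, 61.9% for Obox2 and 59.1% for Obox1. The counts of Obox1, Obox2 and Obox3 therefore rest on part of each transcript and are the least certain of the 7.

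The libraries held 28167085 to 41482526 counts over genes and repeats, of which 22590109 to 32361733 fell on genes. The members took 20730 to 31940 counts per library, or 0.0754% to 0.108% of the gene counts. MERVL-int, the internal part of MERVL, checked the knockdown: its share of all counts was 6.33% and 6.57% in control 2-cell embryos, against 0.157% and 0.143% after knockdown, and its fitted level was 52.7-fold, 46.2-fold and 42.1-fold lower at the 3 stages in turn. The 8 early embryo markers all had counts in every group, and their sum was lower after knockdown at each stage: 1365 to 1391 CPM (counts scaled to library size) in control against 930.4 to 971.1 CPM in 2-cell embryos, 1855 to 1971 against 1562 to 1613 CPM in 4-cell embryos, and 2477 to 2513 against 1968 to 2184 CPM in 8-cell embryos. Dppa3 had the highest mean of the 8 early embryo markers in every group, at 775.3 CPM in control and 502.2 CPM in MERVL-KD 2-cell embryos. Their sum therefore rests largely on that gene. The 12 cumulus and granulosa cell markers summed to at most 4.94 CPM in any library, with Ptx3 at 0 in both 2-cell groups. The 8 sperm markers, with Smcp at 0 in both 2-cell groups, summed higher after knockdown without overlap: 1.35 to 1.66 CPM in control against 2.15 to 3.32 CPM in 2-cell embryos, 0.51 to 0.694 against 0.934 to 1.04 CPM in 4-cell embryos, and 0.399 to 0.669 against 0.692 to 0.779 CPM in 8-cell embryos. The 5 blood and immune markers summed to 2.26 to 2.80 CPM in control and 7.97 to 10.4 CPM in 2-cell embryos after knockdown, led by Hba-a1 in control and by Cd68 in MERVL-KD, with Hbb-bs at 0 in both and Ptprc at 0 in MERVL-KD. At the 4-cell stage that sum was 2.07 to 3.71 CPM against 6.81 to 10.8 CPM, and at the 8-cell stage 2.48 to 3.48 CPM against 3.83 to 4.23 CPM. The part of these markers in the Obox values was not tested. With 30 embryos in a library, fewer cells with a transcript and less of it per cell cannot be told apart.

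Levels are given as CPM, scaled by TMM factors over the 12 libraries. The order of different genes within a group is given as CPM per kilobase of annotated exon, while sums and shares over genes use CPM. In control 2-cell embryos Obox5 was the highest member at 209 ± 2.29 CPM per kilobase (SD, n = 2), rank 85 of 55291 genes. Obox6 followed at 95.4 ± 2.81, then Obox8 at 59.0 ± 13.3, Obox1 at 40.7 ± 0.712, Obox3 at 30.9 ± 2.73, Obox2 at 19.7 ± 0.929 and Obox7 at 8.10 ± 1.99 CPM per kilobase. No 2 neighbours in this order overlapped in their libraries. In MERVL-KD 2-cell embryos Obox5 again led, at 122.9 ± 6.53 CPM per kilobase, and the neighbours Obox6 and Obox8, and Obox1 and Obox3, overlapped. By the 4-cell stage only Obox6 and Obox8 stayed high, at 344 ± 22.9 and 235 ± 78.3 CPM per kilobase in control embryos (ranks 57 and 102), while the next member, Obox5, was at 5.02 ± 0.339.

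**Figure D1:**
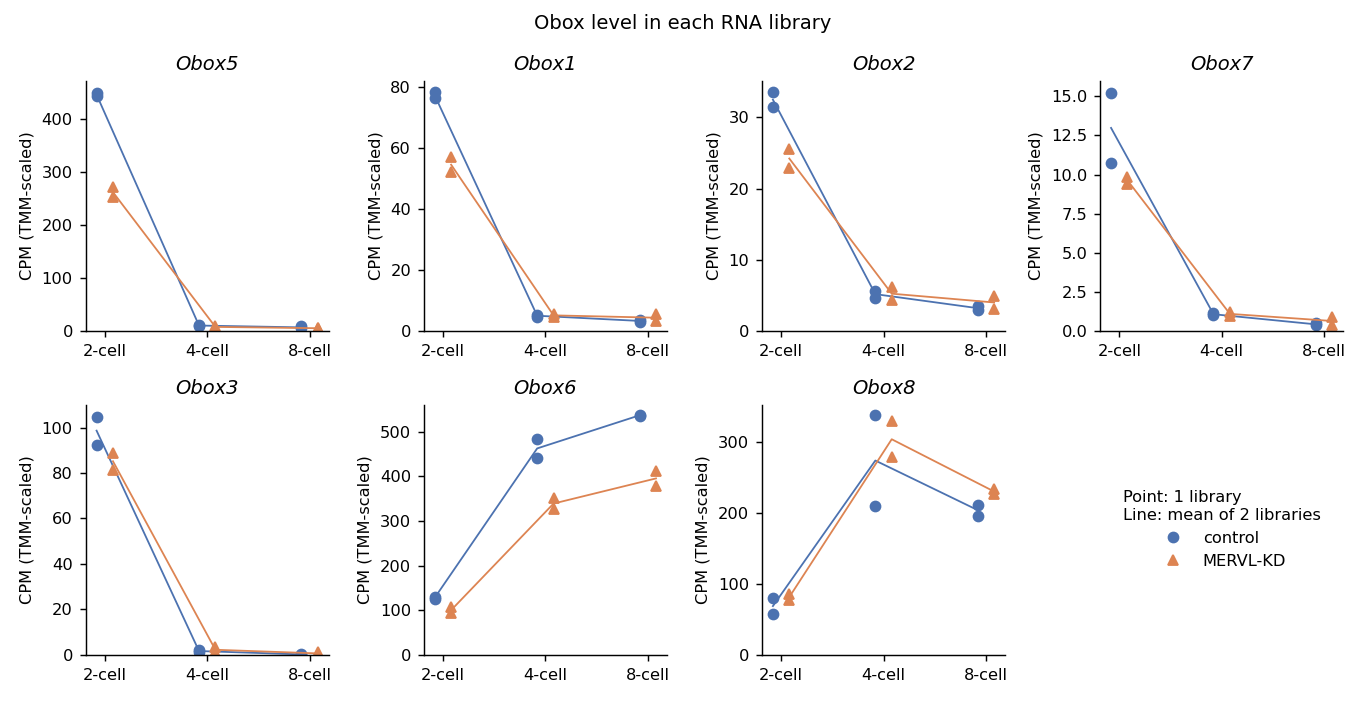
TMM-scaled CPM (vertical axis, linear and from 0) of each Obox member at the 2-cell, 4-cell and 8-cell stages, with a point for each of the 2 libraries of a group (circles, control; triangles, MERVL-KD) and lines joining group means. Obox5, Obox1, Obox2, Obox7 and Obox3 are near the axis after the 2-cell stage, while Obox6 and Obox8 are higher at the later stages; in the 2-cell panel of Obox5 the control libraries stand at 443 and 449.9 CPM and the MERVL-KD libraries at 252.6 and 272.3 CPM.

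The first question was how each member changed as control embryos cleaved. Between the 2-cell and 4-cell stages 5 members fell and 2 rose, all 7 by at least 2-fold at an adjusted p under 0.05 (edgeR quasi-likelihood test, Benjamini-Hochberg over all genes and repeat families tested). In the same comparison 53.5% of the 20272 genes tested passed, 28.5% lower and 25% higher, so a change in this interval was common. Shares, counts and medians of features here and below are over the genes tested, without repeat families. Members that passed the filter only through their 2-cell level had to differ.

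Obox5, the most abundant maternal member, was at 443 and 449.9 CPM in control 2-cell embryos and at 11.2 and 10.2 CPM in control 4-cell embryos. It fell by 5.29 on the log2 scale (SE 0.11, 39.2-fold lower, adjusted p = 8.49e-10 by edgeR). Obox1, the closest to Obox2 among the 6 coding sequences compared, went from 78.2 and 76.3 CPM to 4.74 and 5.42 CPM (fell by 3.85, SE 0.14, 14.4-fold lower). Obox2, the shortest of the 6 coding sequences compared, went from 33.5 and 31.4 CPM to 5.67 and 4.72 CPM (fell by 2.55, SE 0.17, 5.87-fold lower). Among these maternal members Obox7 was the least abundant, with 15.2 and 10.7 CPM in 2-cell embryos and 1.16 and 1.007 CPM in 4-cell embryos (fell by 3.49, SE 0.29, 11.2-fold lower). The 2-cell and 4-cell libraries did not overlap for any of the 4, and 44.9% of features were lower without overlap in this interval.

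Obox3, the member transcribed at genome activation, showed the largest fall of the 7. Its control 2-cell libraries held 92.5 and 104.8 CPM and its control 4-cell libraries 1.98 and 1.42 CPM, 53.9-fold lower (fell by 5.75, SE 0.18, adjusted p = 5.29e-09 by edgeR). Counts of Obox3 were 2903 and 3810 before and 70 and 41 after. In the 8-cell stage 0 and 14 counts remained in the control libraries. Under sampling noise alone a 0 allows at most 3 counts. The control 8-cell replicates varied by more than that noise (chi-square per degree of freedom 15.2 over genes), so this is not a firm bound.

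Obox6 rose from 130.9 and 125.5 CPM to 441.2 and 484.6 CPM (log2 fold change 1.94, SE 0.091, 3.83-fold, adjusted p = 4.23e-08 by edgeR). Obox8 rose from 57.9 and 79.8 CPM to 209.4 and 338.7 CPM, with the widest spread in CPM of the 7 between the control 4-cell replicates (log2 fold change 2.08, SE 0.24, 4.22-fold, adjusted p = 0.000201). These are the outermost members of the 7 on the chromosome. Obox6 was the most diverged of the 6 members compared in coding sequence, and Obox8 was not among those. Without control 2-cell replicate 1 the adjusted p of Obox8 was 0.152 (log2 fold change 1.82) and without control 2-cell replicate 2 it was 0.0651 (2.27), and the range over all 14 alternatives was 2.51e-69 to 0.152.

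In MERVL-KD embryos the same 5 members fell and the same 2 rose by at least 2-fold in this interval, where 49.6% of 21519 features passed, 26.4% lower and 23.3% higher. The log2 fold change was −5.19 (SE 0.36) for Obox3, −4.98 (SE 0.16) for Obox5, −3.35 (SE 0.17) for Obox1, −3.08 (SE 0.30) for Obox7 and −2.16 (SE 0.23) for Obox2. It was 1.94 (SE 0.12) for Obox8 and 1.80 (SE 0.11) for Obox6. The difference between the arms is tested below as the change of the knockdown effect between stages.

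**Figure D2:**
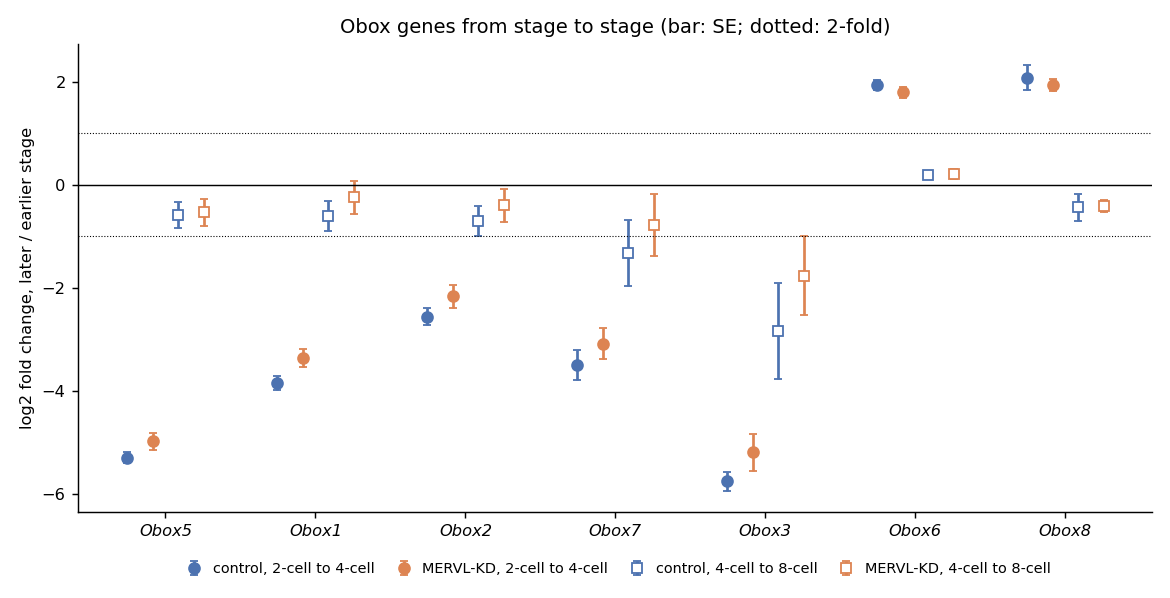
Log2 fold change from 1 stage to the next (vertical axis) of each Obox member in control and MERVL-KD embryos, with the standard error as a bar. From the 2-cell to the 4-cell stage (filled circles) Obox3 lies lowest, at −5.75 in control, and Obox6 and Obox8 lie above the dotted line of 2-fold; from the 4-cell to the 8-cell stage (open squares) no point has an adjusted p under 0.05.

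Both the 4-cell and the 8-cell embryos were labelled 2.5 days post-coitum, so this is a contrast by stage within the same labelled day and not by age. Between the 4-cell and 8-cell stages no member passed an adjusted p of 0.05 in either arm by edgeR. In control embryos 10.3% of 18603 features passed without a fold threshold and 1.74% with 2-fold. At an unadjusted p under 0.05 there were 4 members, Obox2, Obox3, Obox5 and Obox6, beside 4420 of 18603 features. DESeq2 also called 0 members. Obox6 was at 441.2 and 484.6 CPM and then at 538.6 and 535.8 CPM, higher without overlap as 28.3% of features were (log2 fold change 0.20, SE 0.070, adjusted p = 0.0886 by edgeR). Obox8 was at 209.4 and 338.7 CPM and then at 196.1 and 212.1 CPM, which overlap. In MERVL-KD embryos 1.84% of 19505 features passed without a fold threshold and 0.887% with it. There 2 members, Obox3 and Obox8, had an unadjusted p under 0.05, beside 3469 features. DESeq2 called 1 member, Obox8, without a fold threshold. Obox8 was at 278.6 and 329.5 CPM and then at 226.6 and 234.0 CPM (log2 fold change −0.41, adjusted p = 0.0869 by edgeR).

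Summed over the family, levels differed less between stages than did the share of each member. These sums and shares are of CPM without division by exon length. Members with longer exons, from 1167 bases in Obox8 to 3191 in Obox3, therefore weigh more. The summed level of the 7 members was 851.2 and 878.5 CPM in control 2-cell libraries, 675.4 and 846.1 CPM in control 4-cell libraries and 751.4 and 760.1 CPM in control 8-cell libraries. In MERVL-KD it was 597.5 and 638.1 CPM, 626.6 and 704.0 CPM, and 625.7 and 657.1 CPM, below both control libraries at the 2-cell and 8-cell stages and overlapping them at the 4-cell stage. Obox6 and Obox8 together made up 22.2% to 30.0% of it in the 2-cell libraries, 96.3% to 97.3% in the 4-cell libraries and 97.3% to 98.4% in the 8-cell libraries. Obox5 alone made up 51.2% and 52.0% in control 2-cell libraries and 42.3% and 42.7% in MERVL-KD 2-cell libraries. An exact permutation test of 2 against 2 libraries cannot give a p under 0.333, and the shares were given no other test. Within the later libraries Obox6 made up 71.7% and 70.5% in control 8-cell embryos against 62.8% and 60.5% after knockdown, and Obox8 26.1% and 27.9% against 34.5% and 37.4%, without overlap for either.

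**Figure D3:**
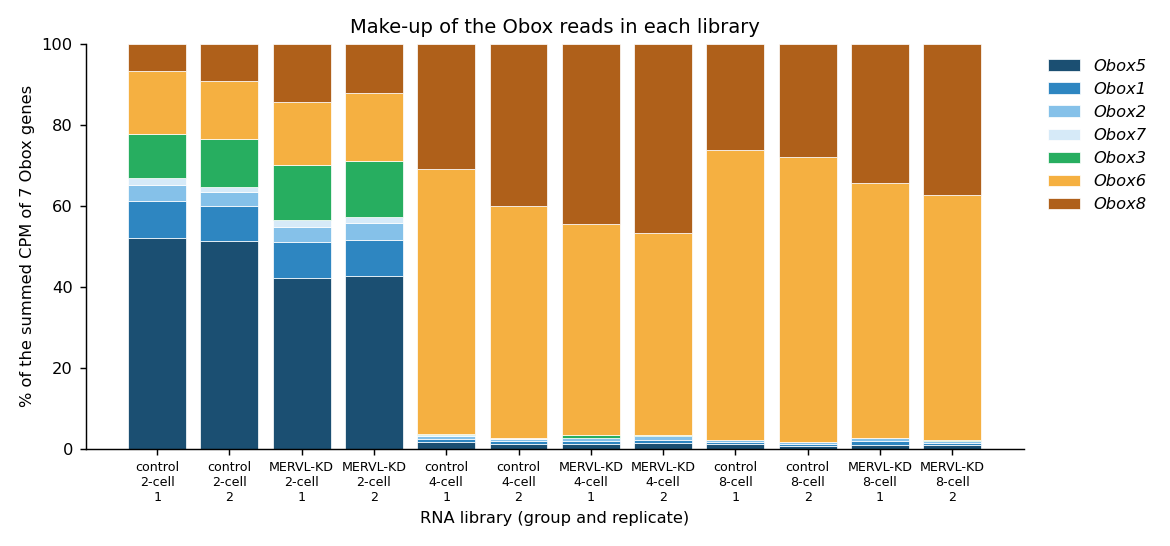
Share of each Obox member (stacked colours, vertical axis in percent) in the summed TMM-scaled CPM of the 7 members, with a bar for each of the 12 RNA libraries. Obox5 fills 51.2% and 52.0% of the control 2-cell bars and 42.3% and 42.7% of the MERVL-KD ones, and Obox6 with Obox8 fills at least 96.3% of every later bar.

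The second question was how MERVL knockdown moved the family at each stage. In 2-cell embryos Obox5 and Obox1 fell and no member rose. By the study's criterion, at least 2-fold with an adjusted p under 0.05, 0 of the 7 members passed, by edgeR and by DESeq2, where 6.61% of 20604 features did. Without the fold threshold 2 members passed, both lower, by edgeR and by DESeq2, where 7.39% of all features passed lower and 14.1% in either direction. At an unadjusted p under 0.05 there were 5 members, the others being Obox2, Obox6 and Obox8, beside 5556 of 20604 features. The log2 fold change was below 0 for 6 of the 7, with a median of −0.34 against 0.014 over all features, but Obox3 and Obox6 were above 0 (0.16 and 0.015) when libraries were scaled by their totals alone. The same scaling gave 4329 features higher and 690 lower at the 2-cell stage, against 1381 and 1523 with TMM. It moves the median of all features to 0.30, 0.089 and 0.13 at the 3 stages in turn.

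Obox5 was at 443 and 449.9 CPM in control and at 252.6 and 272.3 CPM in MERVL-KD 2-cell embryos. It was lower without overlap, as 33.7% of features were, and fell by 0.68 on the log2 scale (SE 0.080, 1.61-fold lower, adjusted p = 3.22e-05 by edgeR). The call held in all 14 alternatives, with adjusted p from 3.31e-13 to 0.0103 and log2 fold changes from −0.77 to −0.40, the last under scaling by library totals. Obox1 was at 78.2 and 76.3 CPM in control and at 52.0 and 57.1 CPM in MERVL-KD, and fell by 0.42 (SE 0.10, 1.34-fold lower, adjusted p = 0.0126). Its adjusted p ranged from 0.00263 to 0.398 over 14 alternatives. It was 0.398 (log2 fold change −0.13) under scaling by library totals, 0.0967 in a fit of all 12 libraries and 0.0565 (−0.37) without MERVL-KD 2-cell replicate 1.

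The other members did not pass at the 2-cell stage. Obox2 had 33.5 and 31.4 CPM in control and 22.8 and 25.6 CPM in MERVL-KD (log2 fold change −0.34, SE 0.13, adjusted p = 0.11). Obox7 had 15.2 and 10.7 CPM against 9.43 and 9.83 CPM (−0.35, SE 0.20, adjusted p = 0.294). Obox3 had 92.5 and 104.8 CPM against 81.4 and 88.9 CPM (−0.13, SE 0.098, adjusted p = 0.45). Each of these sets of libraries was lower in MERVL-KD without overlap, which 33.7% of all features were. Obox6 had 130.9 and 125.5 CPM against 93.1 and 107.5 CPM, also without overlap (−0.27, SE 0.096, adjusted p = 0.0763), and passed at 0.0152 without MERVL-KD 2-cell replicate 2 and at 0.0236 in the fit of all 12 libraries (range over 14 alternatives, 0.0152 to 0.932). Obox8 was the one member with a value above 0: its libraries held 57.9 and 79.8 CPM in control and 86.1 and 76.9 CPM in MERVL-KD, which overlap (0.33, SE 0.13, adjusted p = 0.112, range 0.00171 to 0.728). It passed as higher in 4 of the 14 alternatives: scaling by library totals (0.62), a filter of at least 1 count in total (0.33), without control 2-cell replicate 2 (0.55) and without MERVL-KD 2-cell replicate 2 (0.40).

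In 4-cell embryos Obox6 fell and no other member passed. It was at 441.2 and 484.6 CPM in control and at 327.7 and 350.9 CPM in MERVL-KD, lower without overlap as 26.4% of features were. It fell by 0.44 on the log2 scale (SE 0.090, 1.36-fold lower, adjusted p = 0.00909 by edgeR). Of 19738 features 5.84% passed lower without a fold threshold; with 2-fold 4.54% passed in either direction, among them 0 members by edgeR and by DESeq2. The call of Obox6 was lost in 1 of 14 alternatives, without control 4-cell replicate 2 (−0.38, adjusted p = 0.0905, range 0.000211 to 0.0905). Obox5 was at 11.2 and 10.2 CPM in control and at 6.86 and 9.37 CPM in MERVL-KD (−0.40, SE 0.23, adjusted p = 0.317). Obox1, Obox2, Obox7 and Obox8 had log2 fold changes of 0.021 to 0.16, and their control and MERVL-KD libraries overlapped. Obox3 had 1.98 and 1.42 CPM in control against 3.32 and 1.20 CPM in MERVL-KD (0.41, SE 0.51). Without control 4-cell replicate 2 Obox8 passed as higher (0.53, adjusted p = 0.0132, range 0.0132 to 0.988), and without control 4-cell replicate 1 its value was −0.15.

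In 8-cell embryos Obox6 was again the member that passed. Its libraries held 538.6 and 535.8 CPM in control and 412.8 and 378.5 CPM in MERVL-KD, lower without overlap as 25.9% of features were. It fell by 0.43 on the log2 scale (SE 0.080, 1.35-fold lower, adjusted p = 0.0102 by edgeR). Of 18414 features 3.56% passed lower without a fold threshold and 1.7% passed with 2-fold, among the latter 0 members by edgeR and by DESeq2. The call was lost under scaling by library totals (−0.30, adjusted p = 0.0647) and without control 8-cell replicate 1 (−0.42, adjusted p = 0.0522), with a range of 6.06e-07 to 0.0647 over 14 alternatives. Obox8 was at 196.1 and 212.1 CPM in control and at 226.6 and 234.0 CPM in MERVL-KD, higher without overlap as 23.6% of features were (0.18, SE 0.085, adjusted p = 0.265). The remaining members were low at this stage: Obox5 at 9.21 and 5.26 CPM in control and 6.08 and 5.23 CPM in MERVL-KD, Obox1 at most 5.59 CPM, Obox2 at most 4.93 CPM, Obox7 at most 0.894 CPM and Obox3 at most 1.15 CPM in any library. Control and MERVL-KD libraries overlapped for all 5. The SE of the log2 fold change was 0.29 for Obox5, 0.33 for Obox1, 0.32 for Obox2, 0.76 for Obox7 and 1.27 for Obox3. A difference of the size seen for Obox6 was therefore not detectable for any of these 5 at this depth. Obox3 had 0 to 45 counts per library and Obox7 had 11 to 31.

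**Figure D4:**
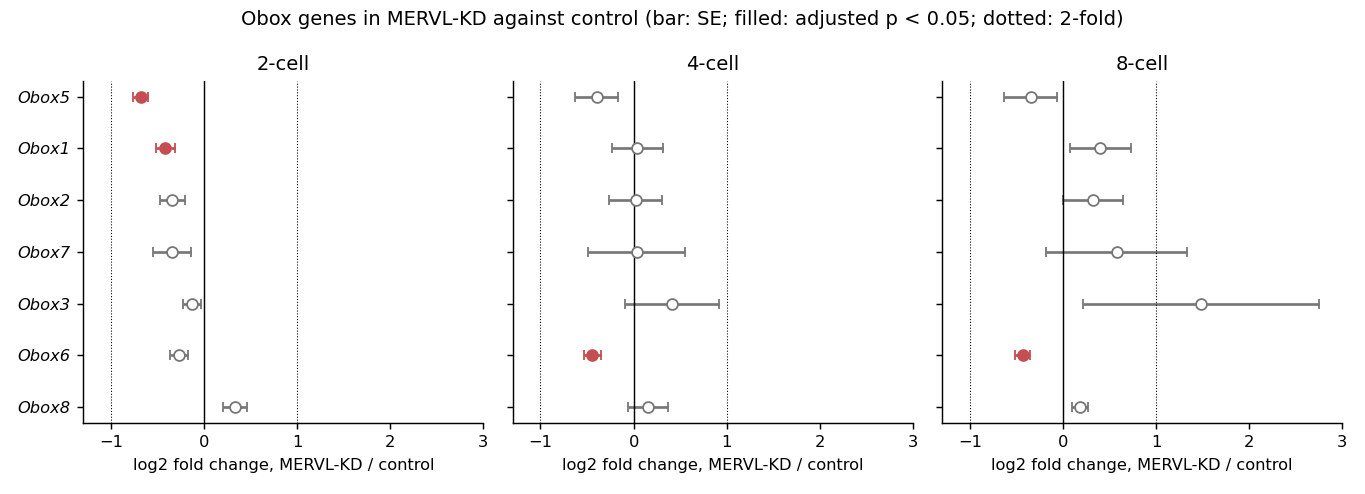
Log2 fold change of MERVL-KD over control (horizontal axis) for each Obox member at the 3 stages, with the standard error as a bar, filled symbols for an adjusted p under 0.05 and dotted lines at 2-fold. Obox5 and Obox1 are filled at the 2-cell stage (−0.68 and −0.42) and Obox6 at the 4-cell and 8-cell stages (−0.44 and −0.43); Obox3 and Obox6 change sign at the 2-cell stage when libraries are scaled by their totals alone, and the wide bar of Obox3 at the 8-cell stage rests on 0 to 45 counts per library.

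Across stages, each member's own levels ordered as follows. Obox5, Obox1, Obox2, Obox7 and Obox3 were highest in control 2-cell embryos, next in MERVL-KD 2-cell embryos and lowest at the later stages, where most neighbouring groups overlapped. For Obox6 no neighbouring groups overlapped, in the order control 8-cell, control 4-cell, MERVL-KD 8-cell, MERVL-KD 4-cell, control 2-cell and MERVL-KD 2-cell. For Obox8 the order was MERVL-KD 4-cell, control 4-cell, MERVL-KD 8-cell, control 8-cell, MERVL-KD 2-cell and control 2-cell, and control 4-cell embryos overlapped both their neighbours, as the 2-cell groups overlapped each other.

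Whether the knockdown effect differed between stages was tested as an interaction in a fit of all 12 libraries, where 24040 genes were tested beside the repeat families. No member passed an adjusted p of 0.05 by edgeR in the 3 contrasts, in which 4.16% (4-cell against 2-cell), 0.624% (8-cell against 4-cell) and 4.03% (8-cell against 2-cell) of features passed. At an unadjusted p under 0.05 there were 0, 0 and 2 members, the 2 being Obox1 and Obox2, beside 4159, 2748 and 4009 features in turn. The smallest adjusted p was that of Obox1 between the 8-cell and 2-cell stages, 0.0855 (difference of log2 fold changes 0.89, SE 0.28), which DESeq2 called (0.87, adjusted p = 0.0487), as did the fit with a filter of at least 1 count in total (0.88, adjusted p = 0.0321) and the fit without MERVL-KD 8-cell replicate 2 (1.14, adjusted p = 0.00917). For Obox5 the knockdown effect at the 4-cell stage differed from that at the 2-cell stage by 0.36 (SE 0.26, adjusted p = 0.535). For Obox6 the effect differed by −0.094 between the 4-cell and 2-cell stages, by −0.087 between the 8-cell and 2-cell stages and by 0.0067 between the 8-cell and 4-cell stages, each with an SE of 0.14. The fall of Obox5 and Obox1 was therefore not shown to be particular to the 2-cell stage, nor that of Obox6 to the later stages.

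Among the 48 other Obox rows, 13 passed the filter in 2-cell embryos and 8 in 4-cell embryos. Obox3-ps2 (chr7:14800224-14801826, minus strand), an annotated pseudogene, fell from a mean of 79.8 to 56.5 CPM in MERVL-KD 2-cell embryos (fell by 0.41, SE 0.10, adjusted p = 0.0128), without reaching 2-fold. Obox4-ps35 (chr7:15820167-15825815, minus strand), which lies between Obox5 and Obox6, was at 2.13 and 2.29 CPM in control and at 16.5 and 5.23 CPM in MERVL-KD 4-cell embryos. It was higher by 2.30 on the log2 scale (SE 0.49, adjusted p = 0.0199), although the MERVL-KD libraries stood apart from each other, and 2.66% of features passed higher by 2-fold. At the 2-cell stage the same row held 53.6 and 64.4 CPM in control and 40.3 and 48.3 CPM in MERVL-KD (−0.33, adjusted p = 0.0924). At the 8-cell stage it held 1.16 and 2.04 CPM against 3.20 and 2.15 CPM (0.74, adjusted p = 0.368).

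Other genes of the oocyte and early embryo were counted from lists, some of which share genes with the marker lists above (Dppa3, Pou5f1, Zscan4c, Zfp352, Nlrp5 and Zp3). Of 17 oocyte and early embryo homeobox genes outside the family tested at the 2-cell stage, 2 fell and 0 rose without a fold threshold, with a median of −0.070: Meis2, a TALE homeobox cofactor (−0.31, SE 0.092, adjusted p = 0.032), and Zfhx3, a zinc-finger homeobox gene (−0.28, SE 0.087, adjusted p = 0.0462), whose value was 0.013 under scaling by library totals. Of 29 oocyte transcripts 10 fell and 0 rose, with a median of −0.27, among them Dppa3, a maternal chromatin protein (−0.54, SE 0.075), Bmp15, an oocyte growth factor (−0.81, SE 0.11), and Btg4, an adaptor for maternal mRNA decay (−0.69, SE 0.10). Of 19 genes of 2-cell genome activation 10 fell and 0 rose, with a median of −0.44, led by Zscan4c (−1.47, SE 0.16), with Sp110 (−0.68, SE 0.079) and Usp17ld, a deubiquitinase gene (−0.84, SE 0.13). Obox5 (−0.68) lay within the range of these named genes, which were picked by smallest adjusted p. It was below the median of each of the 3 lists, beside the background of 7.39% of features lower.

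At the 4-cell stage 0 of 17 of the homeobox genes passed, 5 of 28 oocyte transcripts fell, among them Omt2b (−1.43, SE 0.16), Oog1 (−1.13, SE 0.15) and Btg4 (−0.77, SE 0.15), and 2 of 19 genome activation genes fell, Sp110 (−1.003, SE 0.087) and Zfp352 (−1.04, SE 0.27), while 1 rose, Zfp750 (1.20, SE 0.30), where 5.84% of all features passed lower. At the 8-cell stage 2 of 16 homeobox genes fell, the pluripotency factors Pou5f1 (−0.68, SE 0.091, adjusted p = 0.00116) and Nanog (−0.65, SE 0.15, adjusted p = 0.0312). There 3 of 27 oocyte transcripts fell, Oog1 (−1.02, SE 0.19), Btg4 (−0.66, SE 0.17) and Dppa3 (−0.29, SE 0.076), and 1 of 18 genome activation genes, Sp110 (−0.69, SE 0.082), where 3.56% of all features passed lower. From the 2-cell to the 4-cell stage of control embryos 22 of 28 oocyte transcripts and 16 of 19 genome activation genes fell by at least 2-fold, as did 7 of 17 homeobox genes outside the family, while 2 of the latter and 1 oocyte transcript rose; of all features 28.5% passed lower and 25% higher.

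The genes with the pattern most like each member were taken from 24018 genes by Pearson's r of log2 CPM over the 12 libraries, a description that mostly reflects the step between the 2-cell and later stages. Those reported here were Smim14, Fndc3b and Bcar3 for Obox1 (highest r 0.998), Zfp74, Zfp518a and Tceanc for Obox2 (0.997), Ncmap and Gm16368 for Obox3 (0.99), Tcl1b1 and Fbxl19 for Obox5 (0.998), Crls1, Tbl3 and Lrr1 for Obox6 (0.997), Arhgap39, Zfp74 and Slc15a5 for Obox7 (0.997), and 4930453N24Rik, Gcm1 and Gm37248 for Obox8 (0.985). Among the members, r ran from 0.908 to 0.996 between Obox1, Obox2, Obox3, Obox5 and Obox7, was 0.88 between Obox6 and Obox8, and was −0.807 to −0.959 between these 2 sets, over libraries that share their stage and depth. Within the annotated spans of the 7 members, 0 sites of the 3 MERVL ASOs or the scrambled ASO were found with up to 3 mismatches on the transcribed strand, and the closest site had 5.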

How the data were processed

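The read count files of 12 RNA libraries were used, and the ATAC-seq libraries were not analysed here. The authors aligned paired 150-base reads to GRCm38/mm10 with STAR 2.5.3a, retained reads that aligned once and ran featureCounts over GENCODE vM25 genes and RepeatMasker families; they deposited raw counts with no normalization. Between 71.8% and 74.7% of low counts were even, as when both mates of a pair are counted, so the counts overstate independent molecules and all errors cover the spread between libraries. The deposited Length column gave CPM per kilobase.

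Each comparison was fitted with edgeR 4.0.16 (R 4.3.3, filterByExpr, TMM, robust glmQLFit, glmQLFTest) on its 4 libraries, the interactions on all 12. Benjamini-Hochberg adjustment ran over all genes and repeat families tested, and DESeq2 1.42.0 was an alternative. SE is that of the log2 fold change. Recovery of 200 changed genes was tested on simulated data. With 2 libraries per group, p-values measure the spread between these samples, which may in part be technical.

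Named genes were the 7 members, other Obox rows that passed in a MERVL-KD comparison, up to 3 genes per list by smallest adjusted p, and the 3 most alike per member, of which some are not reported here. The members and lists were chosen with earlier results of these data known.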

Additional observations from a re-analysis of the deposited data

How the results depend on the processing

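Each value was recomputed with DESeq2, DESeq2 size factors in edgeR, library size alone in place of TMM, filters of at least 1 count in total and at least 10 counts in every library, counts halved and rounded up, a non-robust fit, genes only, all 12 libraries in one fit, a replicate block and each library left out in turn, where an arm of 1 library was assumed to vary like the others. Of these values 1285 kept direction and call, 41 lost the call, 25 gained it and 48 turned direction, and the cause was not tested. Without the fold threshold 2, 1 and 1 members passed at the 2-cell, 4-cell and 8-cell stages, against 0 with it. Leaving out a library gave 1 to 4 at the 2-cell stage and 0 to 1 at the 8-cell stage, and library size alone gave 0 at the 8-cell stage. From the 4-cell to the 8-cell stage of control embryos 1 member passed with at least 1 count in total and 1 with halved counts, under either rule, and 0 to 1 (2-fold) or 1 to 2 (no fold threshold) with a library left out. In MERVL-KD embryos 1 passed by 2-fold with at least 1 count in total, and without a fold threshold 1 passed by DESeq2, 1 with library size alone, 2 with at least 1 count in total, 1 with a floor of 10 counts in every library, and 0 to 1 with a library left out, under either rule. For the 8-cell against 2-cell difference 1 member passed by DESeq2, 1 with at least 1 count in total and 0 to 1 with a library left out.

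Turned directions were Obox3 (0.16), Obox6 (0.015) and Zfhx3 (0.013) at the 2-cell stage with library size alone, and Obox7 (−0.0070) at the 4-cell stage with halved counts. For the 8-cell against 4-cell difference they were Obox6 (−0.019) and Obox8 (−0.0023) by DESeq2, Obox6 (−0.019) and Obox8 (−0.0027) with its size factors, Obox6 (−0.0028) with the floor of 10 counts, and Obox8 (−0.011) with the replicate block. With a library left out, log2 fold changes ran at the 4-cell stage from −0.088 to 0.15 (Obox1), −0.26 to 0.25 (Obox2), −0.51 to 0.96 (Obox3), −0.13 to 0.17 (Obox7) and −0.15 to 0.53 (Obox8). At the 8-cell stage they ran from −0.043 to 0.74 (Obox1), −0.041 to 0.62 (Obox2), −0.43 to 7.50 (Obox3), −0.69 to 0.12 (Obox5) and −0.087 to 1.03 (Obox7), and from the 4-cell to the 8-cell stage in MERVL-KD from −0.67 to 0.11 (Obox1). The 4-cell against 2-cell difference ran from −0.31 to 1.05 (Obox3), −0.25 to 0.0013 (Obox6) and −0.39 to 0.30 (Obox8). The 8-cell against 4-cell difference ran from −0.080 to 0.72 (Obox1), −0.058 to 0.62 (Obox2), −0.86 to 7.24 (Obox3), −0.25 to 0.53 (Obox5), −0.064 to 0.091 (Obox6), −0.11 to 1.03 (Obox7) and −0.36 to 0.33 (Obox8). The 8-cell against 2-cell difference ran from −0.36 to 7.73 (Obox3), −0.0021 to 0.78 (Obox5), −0.18 to 0.021 (Obox6) and −0.33 to 0.16 (Obox8). The upper ends for Obox3 that involve the 8-cell stage (7.50, 7.24 and 7.73) come from leaving out control 8-cell replicate 2, after which the control library has 0 counts of Obox3, so they depend on the prior count and give neither a size nor a bound.

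Replicates with the same number did not deviate together (r from −0.013 to 0.020 over 24850 genes and repeat families), so they share only a number. With the replicate block 2627, 1820 and 1339 features passed at the 3 stages without a fold threshold, against 2904, 2125 and 932, and the count of members changed only in MERVL-KD embryos from the 4-cell to the 8-cell stage, to 1 (Obox8, adjusted p = 0.0202) from 0. Library size alone gave 1080 higher features and 808 lower in 4-cell embryos, then 565 and 362 in 8-cell embryos, against 972 and 1153, and 276 and 656, with TMM. Of the listed genes, Meis2 passed in 9 of 14 alternatives, Zfhx3 in 8, Zscan4c and Usp17ld in 13 (adjusted p = 0.18 and 0.515 in the fit of all 12 libraries), Zfp352 and Zfp750 at the 4-cell stage in 10 and 12, Oog1 at the 8-cell stage in 13, and Dppa3, Btg4 and Nanog at the 8-cell stage in 8, 9 and 11. At the 8-cell stage depth limits Obox3 (0 to 45 counts per library) and Obox7 (11 to 31) most. It also limits Obox5, Obox1 and Obox2, with SEs of 0.29, 0.33 and 0.32 in the knockdown comparison.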
